A study of Homo sapiens with 16 samples.

Results

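Ancestral MDA-MB-231 cells on soft ECM were compared with the same cells on stiff ECM. MDA-MB-231 is a human breast adenocarcinoma line of mesenchymal character, labelled WT here, and ancestral means the population that had not gone through sustained selection on either gel. The 2 groups were ancestral cells on soft polyacrylamide hydrogel (Young's modulus 1 kPa) and ancestral cells on stiff polyacrylamide hydrogel (308 kPa), with 4 libraries each. These moduli are those of the labels, while the column names of the expression table carry another, smaller number for the stiff gel, so the printed stiffness of that gel is uncertain. Both gels carried type I collagen, and the cells grew in DMEM with donor bovine serum. These 8 libraries were chosen by their labels from the 16 of the series, the other 8 being cells selected over a long period on one of the gels and kept there. Of 19468 genes in the expression table, 12178 reached an FPKM (fragments scaled to transcript length and to the mapped fragments of the library) of at least 1 in at least 4 of the 8 libraries and were tested, and 7290 were not. Of the tested genes, 52 passed only through the soft libraries and 4 only through the stiff ones, so these had to differ, and 36 and 2 of them were called. How long the ancestral cells had been on the gels, and whether the 4 libraries of a group came from separate cultures, is stated neither by the labels nor by the methods, so the p-values measure the spread between these libraries, which may be technical.

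Cells attached to collagen sense the resistance of the gel through integrins, focal adhesions and actomyosin. On stiff substrates, spreading and contractility favour the nuclear localization of the coactivators YAP and TAZ, which act through TEAD factors on genes such as ANKRD1 and CYR61, and actin polymerization releases the coactivators of SRF. Soft substrates are widely described as limiting spreading and proliferation. The RNA of such cells therefore contains several readouts of stiffness: YAP/TEAD and SRF target genes, matrix and adhesion genes, cell cycle genes and growth factor pathways.

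The labelled cell line was checked first. All 12 marker genes of MDA-MB-231 were expressed, and their summed level was 9855 to 11188 FPKM on soft ECM and 9398 to 11117 on stiff ECM. VIM, the mesenchymal intermediate filament vimentin, was at 2127 ± 41.6 FPKM on soft (SD, n = 4) and 2032 ± 77.1 on stiff ECM. Of 14 luminal epithelial markers, 5 stayed under an FPKM of 1 in every library and 7 were tested. ESR1, PGR and FOXA1, which were among these 5, stayed under an FPKM of 0.01 in both group means. Of the markers of other cells, 11 of 14 fibroblast markers, 12 of 14 blood cell markers and 7 of 8 endothelial markers stayed under an FPKM of 1 in every library. DCN, SFRP2, CD3E, MS4A1 and EMCN were listed at 0 in all 8 libraries. The summed level of the 14 luminal markers was 523 to 557 FPKM on soft and 392 to 495 on stiff ECM, led by KRT19 and MUC1.

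At an adjusted p under 0.01 (limma on log2(FPKM + 1), Benjamini-Hochberg), 1385 genes were higher and 652 genes were lower on soft ECM. These are 11.4% and 5.35% of the genes tested, 16.7% together. The changes were small: among called genes the median absolute log2 fold change was 0.38, and 33 higher and 2 lower genes passed a 2-fold change. The higher calls made up 68% of all calls, but this split depended on the scaling. With every library scaled to the same median, 1131 were higher and 990 lower (53.3% higher), quantile normalization gave 983 and 907 (52%), and voom on recovered reads with library sizes by median of ratios gave 1174 and 1338 (46.7%). With the trend in coding length removed, 998 were higher and 1306 lower. The median log2 fold change of all tested genes was 0.03. All soft libraries lay above all stiff ones in 2400 tested genes, and below them in 1467. Among the called genes, 1372 of the higher and 649 of the lower had no overlap between groups.

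**Figure D1:**
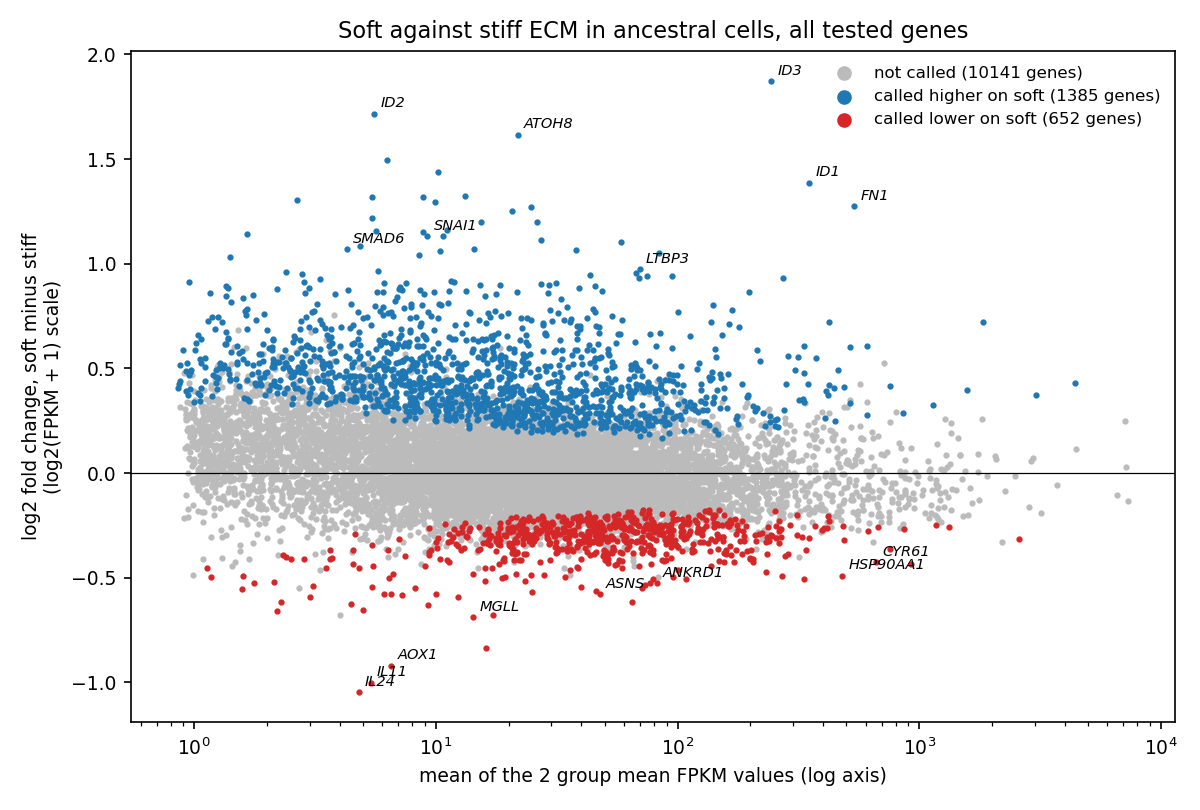
Each point is 1 of the 12178 tested genes. The horizontal axis is the mean of the 2 group mean FPKM values (log axis), and the vertical axis is the log2 fold change of soft against stiff on the log2(FPKM + 1) scale. The largest increases (ID3, ID2, ATOH8, ID1, FN1) exceed the largest decreases (IL24, IL11) in size, and genes of low level lie mostly above 0.

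Several measured properties moved with the groups. Depth did not separate them, with 43475899 to 55473000 reads per library on soft and 45800340 to 55301346 on stiff ECM. The 25th percentile of FPKM over the table was 0.0603 to 0.0696 on soft and 0.0423 to 0.0469 on stiff ECM, without overlap. Across genes the log2 fold change correlated with the GC content of the coding sequence (Spearman correlation 0.318, 12087 genes) and inversely with mean level (-0.291). Genes are not independent replicates, and the part of these trends in any result was not tested. With the GC trend removed, 844 genes were higher and 1079 lower (43.9% higher), and with the trend in mean level removed, 978 and 915 (51.7%). Both alternatives were chosen after seeing the data.

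The 4 stiff libraries were less uniform than the 4 soft ones. On the first principal component (57.4% of the variance) soft libraries lay between -15.32 and -11.39, while stiff replicate 1 (8.1) and stiff replicate 4 (10.49) lay nearer to them than stiff replicates 2 (16.12) and 3 (17.83). For all 12 of the largest increases, replicate 1 was the highest of the stiff libraries, and for 10 of the 12 largest decreases it was the lowest. Without stiff replicates 1 and 4, 1753 genes were higher and 1304 lower on soft ECM. Higher and lower counts both changed by over 1.5 times when some single libraries were left out. Without stiff replicate 2 they were 737 and 216, without soft replicate 2 they were 792 and 286, and without soft replicate 3 they were 829 and 302. The lower calls alone changed as much without soft replicate 1 (376), soft replicate 4 (333), stiff replicate 3 (401) and stiff replicate 4 (1135).

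**Figure D2:**
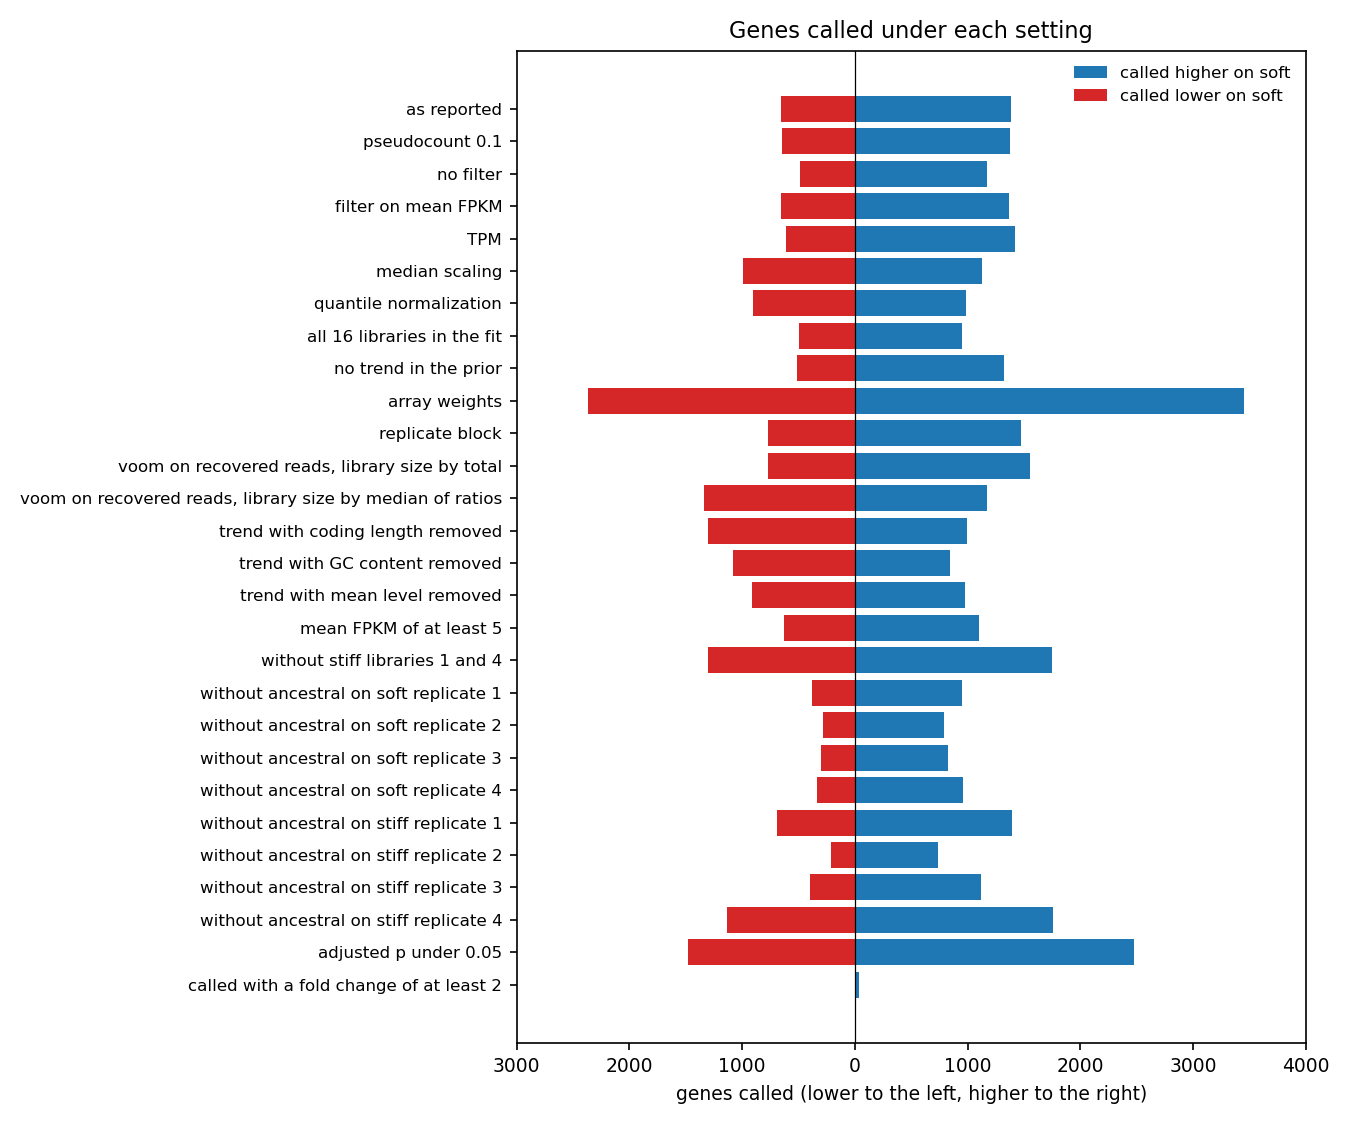
Number of genes called higher (blue) and lower (red) on soft ECM under each setting of the fit, with the reported fit first. Without stiff replicate 2 the counts fall to 737 and 216, and with array weights they reach 3453 and 2365.

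ID3, ID2 and ID1, which encode inhibitors of basic helix-loop-helix transcription factors and are textbook targets of BMP signalling, were among the 6 largest increases on soft ECM. ID3 was at 386, 414, 335 and 385 FPKM in the soft libraries and at 155, 84, 75.1 and 114 in the stiff ones. All soft libraries lay above all stiff libraries, by 3.55-fold in the means (log2 fold change 1.87 ± 0.18 SE, limma adjusted p = 0.00018). ID1 was at 530, 504, 476 and 510 FPKM on soft and at 287, 168, 157 and 180 on stiff ECM, which is 2.55-fold. ID2 was much less abundant, with 7.86 to 9.79 FPKM on soft and 1.16 to 2.99 on stiff ECM. ATOH8, itself a helix-loop-helix factor, was 3.18-fold higher, at 33.2 ± 2.74 FPKM on soft against 10.5 ± 3.28 on stiff ECM (SD, n = 4). SMAD6, the inhibitory SMAD that feeds back on BMP receptors, was at 6.6, 6.07, 6.16 and 5.78 FPKM on soft and at 2.72, 2.07, 2.4 and 2.46 on stiff ECM. Its log2 fold change of 1.07 ± 0.08 had the smallest adjusted p of the genes named here (limma, 5.3e-05).

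Of 34 listed genes for TGF-beta and BMP ligands, receptors and feedback, 30 were tested, 9 were higher and 1 was lower on soft ECM. Their median log2 fold change was 0.18, against 0.03 for all tested genes. The other higher members were LTBP1, which binds latent TGF-beta in the matrix (0.90), BAMBI, a pseudoreceptor (0.67), the ligand TGFB1 (0.45), the type II receptor BMPR2 (0.40) and the corepressor SKIL (0.31). NEDD4L, a ubiquitin ligase that acts on activated SMADs, was lower (-0.53, 59.6 ± 3.8 against 86.7 ± 6.78 FPKM, SD, n = 4). After removal of the GC trend the list again had 9 higher and 2 lower calls. Leaving out 1 library gave 7 to 12 higher calls.

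The promoters of the ID genes of high level and of FN1 are shown because these were the abundant transcripts with the largest increases. Each line gives the 150 bases before the RefSeq start site on the gene's strand (GRCh38.p14), with TATAA (either strand) in capitals. In all 3 the match lay 28 to 32 bases before the start. TATAA was present in the 250 bases before the start in 18.9% of all 35116 RefSeq promoter windows. It was held by 14.8% of the 10051 tested genes with a window, 16.3% of those called higher and 15.9% of those called lower.
ID1, chr20:31605139-31605288, plus strand: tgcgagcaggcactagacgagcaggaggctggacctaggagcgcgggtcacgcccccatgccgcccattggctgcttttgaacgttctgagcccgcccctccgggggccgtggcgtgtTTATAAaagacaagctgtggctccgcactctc
ID3, chr1:23559502-23559651, minus strand: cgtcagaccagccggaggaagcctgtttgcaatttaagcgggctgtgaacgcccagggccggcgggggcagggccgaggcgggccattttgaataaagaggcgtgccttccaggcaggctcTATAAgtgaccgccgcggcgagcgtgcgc
FN1, chr2:215436069-215436218, minus strand: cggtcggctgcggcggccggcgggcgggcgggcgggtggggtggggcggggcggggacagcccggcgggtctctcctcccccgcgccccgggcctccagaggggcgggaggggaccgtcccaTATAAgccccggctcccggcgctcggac

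Among genes of the extracellular matrix, more were higher than lower on soft ECM. Of 67 listed glycoproteins and proteoglycans, 39 were tested, of which 19 were higher, 1 was lower and 19 were not called (median log2 fold change 0.29). FN1, the adhesive glycoprotein fibronectin, was at 626, 833, 743 and 821 FPKM on soft and at 448, 271, 242 and 312 on stiff ECM. The groups did not overlap, and the means differed 2.37-fold (log2 fold change 1.28 ± 0.16, limma adjusted p = 0.00041). The rule that named FN1 required both the call and the lack of overlap. LTBP3, a latent TGF-beta binding protein, was at 93.4, 93.1, 95.8 and 88.4 FPKM on soft and at 54.7, 43.9, 42.3 and 46.4 on stiff ECM, or 1.98-fold. THBS3 (log2 fold change 0.68), TNXB (0.68) and the basement membrane proteoglycan HSPG2 (0.60) were also higher. TNXB has a near-identical partial copy, so its level is uncertain. THBS1, thrombospondin 1 and a known YAP target, was the 1 lower member (661 ± 23.8 FPKM on soft, 850 ± 28.3 on stiff ECM, log2 fold change -0.36).

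Among 18 tested collagen genes of 31 listed, 7 were higher and 2 were lower on soft ECM. The microfibrillar collagen VI genes COL6A1 (78.9 ± 2.38 against 54.5 ± 4.43 FPKM, SD, n = 4) and COL6A3 (3.94 ± 0.231 against 2.05 ± 0.236) and the fibrillar regulator COL5A1 (86.3 ± 1.73 against 64 ± 6.33) were higher, while COL12A1 (-0.33) and COL8A1 (-0.26) were lower. Proteases, their inhibitors and cross-linkers gave 18 higher and 3 lower of 50 tested (66 listed). The metalloprotease inhibitors TIMP1 (442 ± 6.83 against 303 ± 34.3 FPKM) and TIMP3 (358 ± 5.31 against 254 ± 19.4), the cross-linking enzyme LOXL1 (log2 fold change 0.55) and the cathepsin CTSD (0.72) were higher. The 3 lower members were the interstitial collagenase MMP1 (1.48 ± 0.191 against 2.93 ± 0.549 FPKM), ADAMTS6 (-0.54) and the urokinase gene PLAU (-0.38). Once the GC trend was removed the higher counts were 13 for glycoproteins, 5 for collagens and 10 for proteases and inhibitors. No collagen was called lower without soft replicate 1, 2 or 3 or without stiff replicate 2 or 3. Leaving out 1 library gave 13 to 22 higher glycoproteins, 5 to 8 higher collagens and 12 to 20 higher proteases and inhibitors. MMP28, 1 of the 18 higher, passed the filter only through the soft libraries.

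Adhesion receptors changed in a few members. Of 15 tested integrin genes (26 in the table), 4 were higher and 0 were lower by limma, and with median scaling 2 were higher and 2 lower. ITGA1, a collagen receptor subunit, was at 24.8, 29, 28.6 and 30 FPKM on soft and at 19.5, 13.3, 13.7 and 14 on stiff ECM (log2 fold change 0.87 ± 0.11, limma adjusted p = 0.00037). ITGA10, at 2.08 ± 0.159 against 0.67 ± 0.0877 FPKM (SD, n = 4), passed the filter only through the soft libraries and had to differ. ITGA2, another collagen-binding alpha subunit, was also higher, by less (log2 fold change 0.23), as was ITGB4 (0.20). Without any 1 soft replicate, or without stiff replicate 2 or 3, 2 integrins were higher. ITGB1, the shared beta subunit, overlapped between groups (518 ± 31.4 against 502 ± 37 FPKM, limma adjusted p = 0.63). Of 38 tested focal adhesion genes 4 were higher, among them the focal adhesion kinase gene PTK2 (0.23), and 2 were lower, among them FERMT1 (-0.37). Over all tested genes 11.4% were called higher and 5.35% lower. Median scaling gave 2 higher and 3 lower and removal of the GC trend 1 and 5. Single libraries also moved the count, with 0 higher and 0 lower without stiff replicate 2, and 5 and 6 without stiff replicate 4. Cadherins and catenins gave 2 higher (CDH11 0.66, JUP 0.41) and 1 lower (CDH4 -0.68) of 13 tested, and 1 was higher in 4 of the 8 fits that left out 1 library.

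The clustered protocadherins, homophilic adhesion receptors encoded in tandem, gave 16 higher and 0 lower of 23 tested (53 listed), with a median log2 fold change of 0.41, and all 23 values were above 0. PCDHGA10 (2.67 ± 0.198 against 1.42 ± 0.0567 FPKM, SD, n = 4), PCDHGB1 (10.4 ± 0.307 against 8 ± 0.27) and PCDHGB2 (17.3 ± 1.22 against 12.3 ± 1.29) had the smallest p-values. Gamma cluster transcripts share their constant exons and neighbouring members are near-identical, so reads may be split among them and the members are not independent. Their median level was 2.61 FPKM, and with the trend in mean level removed 3 were called higher. With the GC trend removed 9 were higher, without soft replicate 3 there were 4, without soft replicate 2 there were 5, without stiff replicate 2 there were 5, and without soft replicate 4 there were 7.

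YAP/TEAD target genes were more often lower than higher on soft ECM. Of 28 tested, 9 were lower and 3 higher, with 21 of 28 log2 fold changes below 0 and a median of -0.07. Over all tested genes, 5.35% were called lower and 11.4% higher, and the median was 0.03. ANKRD1, a cardiac ankyrin repeat protein gene used as a YAP reporter, was at 59.6, 68.3, 70.5 and 70.1 FPKM on soft and at 91.4, 99.2, 94.8 and 102 on stiff ECM. All stiff libraries lay above all soft libraries, by 1.44-fold (log2 fold change -0.52 ± 0.06, limma adjusted p = 0.00028). CYR61, which encodes a matricellular protein, was at 541, 593, 574 and 548 FPKM on soft and at 788, 803, 700 and 743 on stiff ECM (1.34-fold, adjusted p = 0.00072 by limma). F3, tissue factor, was 1.42-fold higher on stiff ECM, and AMOTL2 was lower on soft ECM (-0.25). CTGF, the paralogue of CYR61, overlapped between groups (135 ± 6.01 against 148 ± 11.3 FPKM, limma adjusted p = 0.11). The higher members were RBMS3, ARHGEF17 and IGFBP3, but 1 was higher in 5 of the 8 fits that left out 1 library, with median scaling and with the trend in mean level removed. After removal of the GC trend 12 were lower and 1 higher. Lower calls in this list numbered 5 without soft replicate 2, without soft replicate 4 and without stiff replicate 2.

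The Hippo pathway genes themselves gave 1 higher and 2 lower of 20 tested. Over all tested genes, 11.4% were called higher and 5.35% lower. Median scaling gave 1 higher and 4 lower Hippo genes, and leaving out stiff replicate 4 gave 3 and 2. YAP1 was at 158 ± 2.24 FPKM on soft and 156 ± 4.88 on stiff ECM (SD, n = 4, limma adjusted p = 0.68). WWTR1, which encodes TAZ, was at 80.1 ± 2.18 and 67.3 ± 7.45 FPKM, with overlap (limma adjusted p = 0.017). WWC1, the upstream scaffold KIBRA, was lower on soft ECM (28.2 ± 0.283 against 40.2 ± 2.85), as was TEAD4 (-0.34), and VGLL4, a TEAD-binding repressor, was higher (38.2 ± 2.12 against 27.1 ± 2.96). TEAD4 kept its call in 4 of the 8 fits that left out 1 library. RNA levels carry no information on where YAP and TAZ were in the cell.

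The promoter of ANKRD1 is shown as that of the YAP target with the largest decrease, with GGAATG, the core TEAD motif, in capitals (either strand).
ANKRD1, chr10:90921088-90921237, minus strand: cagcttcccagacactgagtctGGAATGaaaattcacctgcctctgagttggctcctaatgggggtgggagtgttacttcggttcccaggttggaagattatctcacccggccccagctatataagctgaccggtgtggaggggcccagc
The match lay 128 bases before the start. GGAATG was present in 11.9% of all promoter windows and in those of 13% of tested genes, of 10 of 19 tested YAP/TEAD targets with a window (52.6%) and of 4 of the 7 called lower.

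Actin, myosin II and SRF target genes gave 0 higher and 5 lower of 47 tested. The shares over all tested genes were 11.4% higher and 5.35% lower. Once the GC trend was removed 11 genes of the list were lower. Without stiff replicate 4 there were 13 lower calls, and without soft replicates 1, 2 or 3 or stiff replicate 2 there were 3. LIMA1, which cross-links actin filaments, was at 61.8, 66.2, 64.4 and 68.6 FPKM on soft and at 85.9, 95, 92.1 and 98.8 on stiff ECM (log2 fold change -0.50 ± 0.05, limma adjusted p = 0.00023). The tropomyosin TPM4 (-0.27) and the alpha-actinin ACTN1 (-0.26) were also lower. ACTB (6954 ± 184 against 7656 ± 744 FPKM, SD, n = 4), MYL9 (151 ± 6.89 against 150 ± 23.4) and MYH9 (440 ± 6.88 against 491 ± 39.1) overlapped between groups.

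Caveolar genes gave 0 calls of 12 and CAV1 overlapped between groups (872 ± 17.4 and 871 ± 79.5 FPKM). With the GC trend removed 4 caveolar genes were lower, and with median scaling 1 was. Without stiff replicates 1 and 4, 1 caveolar gene was higher and 3 were lower. The shares called over all tested genes were 11.4% higher and 5.35% lower. Nuclear lamina and LINC complex genes gave 3 lower of 18 (LBR, TMPO and LMNB2, with log2 fold changes of -0.28, -0.28 and -0.34). TMPO and LMNB2 kept the call in 1 of 8 fits that left out 1 library, and the LMNB2 libraries overlapped. The list had 0 lower without soft replicate 2, 4 without stiff replicate 4 and 1 in each of the other 6 fits. LMNA overlapped between groups (407 ± 50.3 and 410 ± 45.9). Mechanosensitive channels gave 1 higher (TMEM63A 0.46) and 1 lower (LRRC8D -0.30, which kept its call in 4 of 8 such fits) of 14, and PIEZO1 was not called (65.3 ± 2.44 and 60.8 ± 1.56, limma adjusted p = 0.11).

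**Figure D3:**
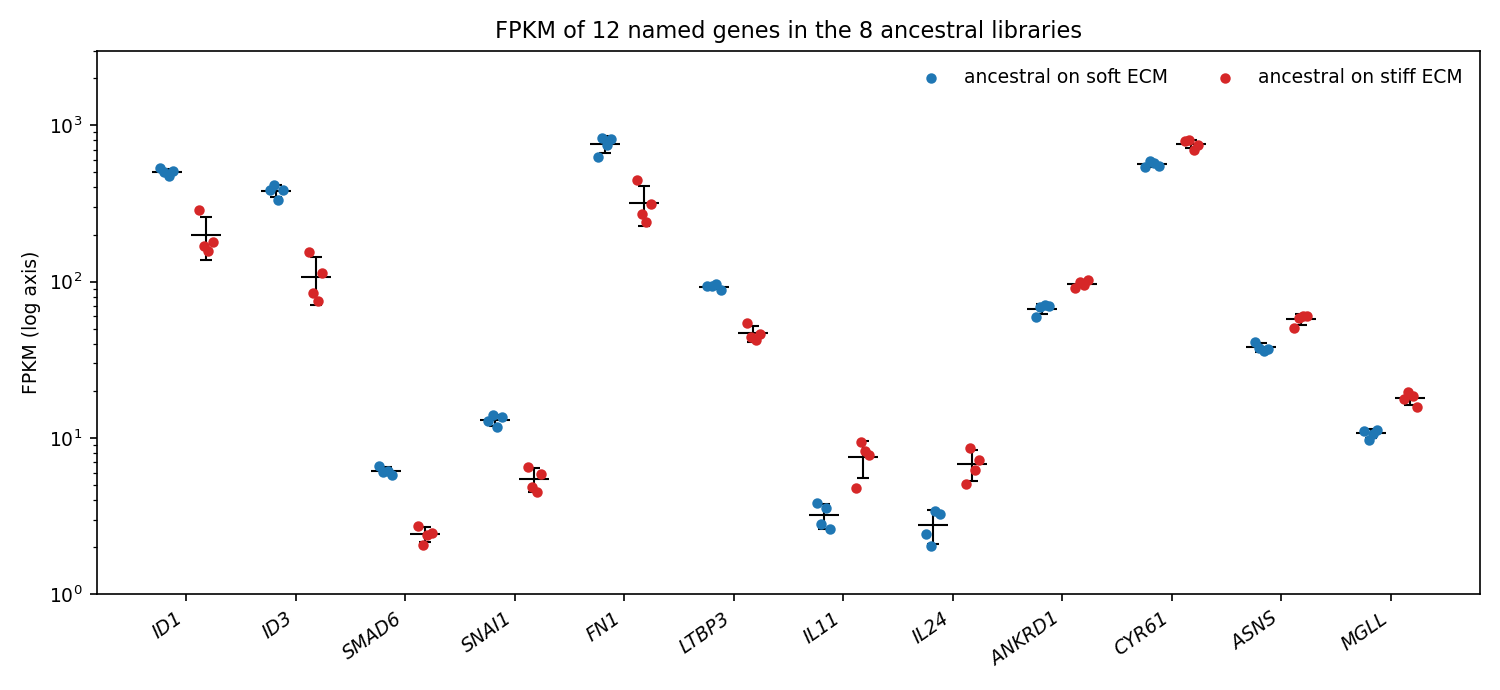
FPKM (log axis) of 12 named genes in the 8 ancestral libraries. Points are single libraries, soft ECM in blue and stiff ECM in red, and black bars give the mean and SD of 4. No soft library overlaps a stiff one in any of the 12 genes. For ID1, ID3, FN1, IL11, IL24, ASNS and MGLL the naming rule required this. Of 12178 tested genes, all soft libraries lay above all stiff ones in 2400 and below them in 1467. The highest stiff point of ID1, ID3, SMAD6, SNAI1, FN1 and LTBP3 is replicate 1.

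Immediate early genes, which respond within minutes to serum and signalling, were higher on soft ECM in 9 of 26 tested members and lower in 1. NR4A1, an orphan nuclear receptor, was at 14.4, 22.4, 15.5 and 9.73 FPKM on soft and at 6.34, 4.65, 4.47 and 4.23 on stiff ECM (log2 fold change 1.44 ± 0.19, limma adjusted p = 0.00056). NR4A2 (1.07), the AP-1 subunit JUNB (0.94), the mRNA decay factor ZFP36 (0.73) and FOS (0.55) were higher too. EGR3 was also called, but passed the filter only through the soft libraries (1.56 ± 0.333 against 0.35 ± 0.0965 FPKM) and had to differ. EGR1 had a large mean difference (78.5 ± 19.2 against 38 ± 18 FPKM), and was among the 9, but the groups overlapped, since stiff replicate 1 was at 63.9 and soft replicate 1 at 63.1. FOSL1, the AP-1 subunit typical of this line, was lower (-0.37). With the GC trend removed 5 were higher. Leaving out stiff replicate 2 or soft replicate 2 also gave 5, and leaving out soft replicate 1, soft replicate 4 or stiff replicate 3 gave 6.

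The list of MAPK feedback inhibitors and ETS outputs gave 9 higher and 1 lower of 27 tested. SPRY4, a Sprouty protein, was at 53.9 ± 1.54 FPKM on soft and 36.8 ± 4.97 on stiff ECM (SD, n = 4), and the phosphatase gene DUSP10 (0.44) and the ephrin receptor EPHA4 (0.43) were higher. The lower member was the EGFR ligand HBEGF (-0.33). After removal of the GC trend the counts were 5 and 4, and without soft replicate 2, soft replicate 3 or stiff replicate 2 there were 4 higher. Wnt pathway genes gave 6 higher and 1 lower of 23, with the coreceptor LRP5 (0.44) and LGR4 (0.37) higher and the inhibitor DKK1 lower (175 ± 12.2 against 234 ± 14.7 FPKM). Once the GC trend was removed the Wnt counts were 3 and 4. Notch genes gave 2 higher of 16 (LFNG 0.61, HES1 0.51), and 1 in 5 of the 8 fits that left out 1 library. Of all tested genes, 11.4% were called higher and 5.35% lower. EMT factors and markers gave 3 higher of 17. SNAI1, a transcriptional repressor of E-cadherin, was 2.4-fold higher (13 ± 1.04 against 5.43 ± 0.948 FPKM), beside the epithelial genes CLDN7 (0.46) and KRT7 (0.41).

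Many mitosis and replication genes were lower on soft ECM by small amounts. Of 54 tested mitosis and G2/M genes, 37 were lower, 0 were higher and 53 had a log2 fold change below 0, with a median of -0.27. MKI67, the proliferation antigen, was at 176, 198, 182 and 197 FPKM on soft and at 222, 237, 229 and 255 on stiff ECM. The groups did not overlap and the means differed 1.25-fold (log2 fold change -0.32 ± 0.06, limma adjusted p = 0.0024). ANLN, the contractile ring scaffold anillin, was at 232 ± 8.94 against 292 ± 5.08 FPKM (SD, n = 4), and NCAPG (-0.36), KIF20B (-0.38), CCNB1 (-0.25) and TOP2A (-0.29) were also lower. DNA replication and G1/S genes gave 18 lower and 0 higher of 49, with 47 values below 0. RRM2, a subunit of ribonucleotide reductase, was at 84.4 ± 2.49 against 117 ± 10.1 FPKM. The replication factor MCM10 (-0.39) and the clamp loader subunit RFC3 (-0.38) were also lower. Clustered histone genes gave 0 calls of 37 by limma. In bulk libraries, fewer cells in a phase and less RNA per cell in that phase cannot be told apart.

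The counts moved with the library left out. Without stiff replicate 2 the lower counts were 16 for mitosis and 6 for replication, and without soft replicate 3 they were 18 and 6. Without soft replicate 2 they were 20 and 5, and without soft replicate 4 they were 24 and 9. Leaving out soft replicate 1 gave 25 and 11 and stiff replicate 3 gave 26 and 10, while stiff replicate 1 gave 33 and 20 and stiff replicate 4 gave 40 and 21. No member of either list was called higher in any of these fits. With the GC trend removed 31 mitosis genes and 26 replication genes were lower, and the median GC content of the mitosis list was 43.3%.

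The promoters of ANLN and NCAPG are shown because they were the mitosis genes with the smallest p-values that held TTTGAA, the cell cycle homology region, in the printed window (capitals, either strand).
ANLN, chr7:36389712-36389861, plus strand: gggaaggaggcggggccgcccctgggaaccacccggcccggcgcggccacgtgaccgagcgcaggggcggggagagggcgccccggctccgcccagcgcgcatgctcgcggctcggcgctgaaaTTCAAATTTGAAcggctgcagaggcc
NCAPG, chr4:17810829-17810978, plus strand: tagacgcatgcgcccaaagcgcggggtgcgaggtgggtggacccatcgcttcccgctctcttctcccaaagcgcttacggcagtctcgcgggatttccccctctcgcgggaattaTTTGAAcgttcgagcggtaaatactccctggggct
TTTGAA was present in 13.3% of all promoter windows, in 11.9% of tested genes, in 25 of 45 mitosis genes with a window (55.6%) and in 18 of the 32 called lower. Over all tested genes it was held by 17.5% of those called lower and 9.88% of those called higher.

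Of 39 tested genes of ribosome biogenesis and nucleotide synthesis, 27 were lower, 0 were higher and 38 had a log2 fold change below 0 (median -0.30). DDX21, a nucleolar helicase, was at 83.8, 89.8, 91.1 and 92 FPKM on soft and at 120, 130, 134 and 124 on stiff ECM (1.42-fold, log2 fold change -0.51 ± 0.05, limma adjusted p = 0.00021). The nucleolar proteins NPM1 (787 ± 22 against 1070 ± 128 FPKM, SD, n = 4) and NCL (-0.42), NOLC1 (-0.37) and UTP15 (-0.36) were lower. Without stiff replicate 2 the lower count was 8, without soft replicates 1 to 4 in turn it was 16, 11, 14 and 13, and with the GC trend removed it was 35. ODC1, the rate-limiting enzyme of polyamine synthesis, was 1.47-fold higher on stiff ECM (85.1 ± 5.3 against 57.9 ± 3.05 FPKM). It was 1 of 3 lower members among 18 tested genes of amino acid and solute metabolism, with SLC38A1 (-0.32) and GOT2 (-0.26), while SLC1A3 was higher (0.55).

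Cytosolic ribosomal protein genes were mostly not called, with 2 lower of 79 tested, among them RPL14 (-0.27), though 67 values were below 0 and the median was -0.13. Their lower count was 25 without stiff replicate 4, 1 without soft replicate 1 and 0 without any other single library. Many ribosomal protein genes have near-identical copies or pseudogenes, so their values are uncertain. None of 76 oxidative phosphorylation genes was called by limma (median 0.02), and without stiff replicate 4 there were 6 higher and 3 lower.

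Heat shock proteins and chaperones gave 19 lower and 0 higher of 32 tested (median -0.27). HSP90AA1, the inducible cytosolic HSP90, was at 390, 394, 411 and 396 FPKM on soft and at 537, 583, 622 and 501 on stiff ECM. The 2 groups were well apart, by 1.41-fold (log2 fold change -0.49 ± 0.07, limma adjusted p = 0.00061). The cochaperone HSPH1 (-0.41), the chaperonin subunit TCP1 (-0.37) and the constitutive HSPA8 (-0.26) were lower. Of the 8 fits that left out 1 library, the count was lowest without stiff replicate 2 (7), and it was 9 without soft replicate 2, 10 without soft replicate 3, 10 without soft replicate 4, 12 without soft replicate 1 and 12 without stiff replicate 3. Its promoter is shown for the heat shock element half-sites TTCNNGAA (capitals, a palindrome).
HSP90AA1, chr14:102087045-102087194, minus strand: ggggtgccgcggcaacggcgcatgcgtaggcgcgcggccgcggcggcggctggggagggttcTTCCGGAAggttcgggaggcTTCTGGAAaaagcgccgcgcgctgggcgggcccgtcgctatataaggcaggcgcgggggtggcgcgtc
The matches lay 88 and 68 bases before this start, and a second start of the gene held none. TTCNNGAA was present in 6.62% of all windows, in 7.23% of tested genes and in 8 of 29 chaperone genes with a window (27.6%), 7 of them among the 18 called lower.

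Genes of the amino acid response, which ATF4 controls, and of the unfolded protein response gave 11 lower and 2 higher of 33 tested. Most lower members were genes of amino acid synthesis or transport. ASNS, asparagine synthetase, was at 41.2, 37.7, 35.7 and 37.3 FPKM on soft and at 50.3, 58.4, 60.2 and 60.3 on stiff ECM (1.51-fold, log2 fold change -0.58 ± 0.07, limma adjusted p = 0.00027). PSAT1, an enzyme of serine synthesis (51 ± 4.24 against 78.7 ± 9.13 FPKM, SD, n = 4), the glutathione-degrading enzyme CHAC1 (3.64 ± 0.554 against 6.31 ± 1.1), and the transporters SLC7A1 (-0.42) and SLC7A5 (-0.49) were lower. The higher members were CEBPB (0.38) and the ER-associated degradation gene HERPUD1 (0.22). Lower calls numbered 6 without soft replicate 2, soft replicate 4 or stiff replicate 2, and 7 without soft replicate 3 or stiff replicate 3. The promoter of ASNS is shown with TGATGNAA, the core of the amino acid response element, in capitals.
ASNS, chr7:97872409-97872558, minus strand: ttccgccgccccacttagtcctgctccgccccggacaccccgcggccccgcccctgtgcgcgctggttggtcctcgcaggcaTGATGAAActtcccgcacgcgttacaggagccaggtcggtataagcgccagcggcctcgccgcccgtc
The match lay 68 bases before the start. TGATGNAA (either strand) was present in 3.14% of all windows, in 2.29% of tested genes and in 4 of 30 genes of this list with a window (13.3%).

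Of 33 tested CDK inhibitors, quiescence genes and p53 targets, 13 were higher on soft ECM and 0 were lower. Their median log2 fold change was 0.24. YPEL3, a growth suppressor, was at 46.5, 54, 47.6 and 55.7 FPKM on soft and at 30.5, 27, 24.6 and 26.2 on stiff ECM (1.88-fold, log2 fold change 0.89 ± 0.08, limma adjusted p = 0.00015). CDKN1A, the CDK inhibitor p21, was at 59.7 ± 2.13 against 43.4 ± 2.78 FPKM (SD, n = 4), and PIK3IP1 (0.78), the antiproliferative BTG1 (0.78) and FOXO1 (0.62) were higher. After removal of the GC trend 10 were higher, and without soft replicate 2 there were 8. Lysosome and autophagy genes gave 11 higher and 0 lower of 32. TFEB, the transcription factor that drives lysosomal genes, was at 18.1, 17.7, 16.4 and 18 FPKM on soft and at 10.7, 9.18, 9.77 and 10 on stiff ECM (1.77-fold). ULK1 (0.47), which starts autophagy, and the lysosomal protective protein CTSA (0.56) were higher. Leaving out any 1 soft replicate other than the first, or stiff replicate 2 or 3, gave 7 higher. Tubulins and microtubule regulators gave 1 higher (HDAC6 0.21) and 2 lower (KIF5B -0.21, TUBB6 -0.22) of 19. Of all tested genes, 11.4% were called higher and 5.35% lower, so these counts are near the general share. KIF5B and TUBB6 kept the call in 1 of 8 fits that left out 1 library, and HDAC6 in 3. Median scaling and removal of the GC trend each gave 0 higher and 5 lower, and without stiff replicate 4 there were 2 and 4.

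**Figure D4:**
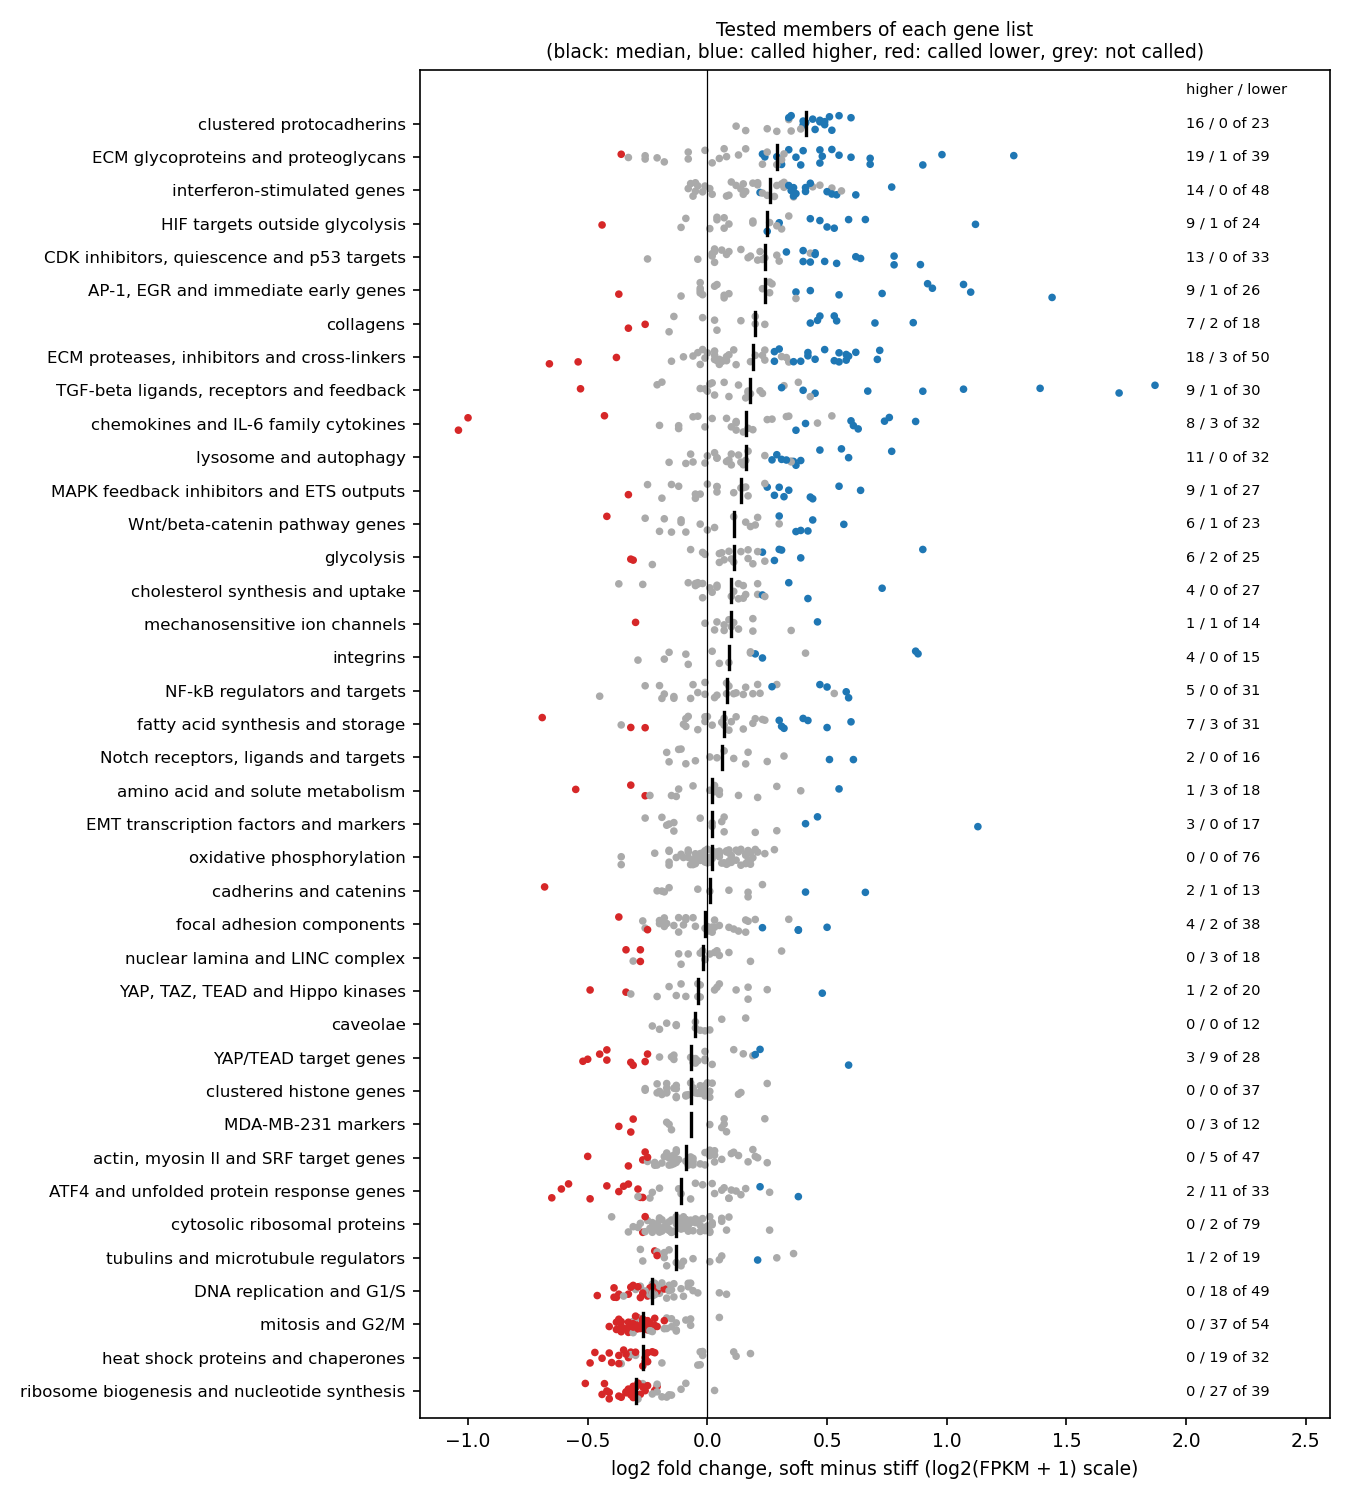
Log2 fold change of soft against stiff (horizontal axis, log2(FPKM + 1) scale) for the tested members of each list described here with at least 10 tested. Points are genes (blue called higher, red called lower, grey not called), the black bar is the median, and the counts called higher and lower stand at the right. Ribosome biogenesis, chaperone, mitosis and replication genes lie left of 0 almost as a whole, and clustered protocadherins lie right of 0.

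Cytokine genes moved in both directions. The list of chemokines and IL-6 family cytokines, which also held other cytokines such as IL24, gave 8 higher and 3 lower of 32 tested. IL24 was at 2.41, 2.02, 3.39 and 3.26 FPKM on soft and at 5.03, 8.66, 6.26 and 7.24 on stiff ECM, the largest decrease by the naming rule (2.45-fold, log2 fold change -1.04 ± 0.15, limma adjusted p = 0.00081). IL11, a cytokine that signals through gp130, was at 3.81, 2.82, 3.57 and 2.6 FPKM on soft and at 4.77, 9.43, 8.19 and 7.77 on stiff ECM (log2 fold change -1.0 ± 0.16). Its receptor gene IL11RA was higher on soft ECM (3.33 ± 0.323 against 1.8 ± 0.239 FPKM, SD, n = 4), as was the chemokine CX3CL1 (14.9 ± 0.646 against 7.8 ± 1.75). NF-kB regulators and targets gave 5 higher and 0 lower of 31, led by CSF1 (0.59), NFKBIZ (0.58) and the inhibitor NFKBIA (0.47). With the GC trend removed these counts were 3 and 4. The share called higher over all tested genes was 11.4%. Leaving out stiff replicate 2 gave 4 higher genes in the list of chemokines and IL-6 family cytokines. Without soft replicate 2, soft replicate 4 or stiff replicate 3 there were 5.

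Interferon-stimulated genes gave 14 higher and 0 lower of 48 tested, with a median log2 fold change of 0.26. STAT2, a subunit of the interferon-activated factor ISGF3, was at 48.2, 49.2, 47.8 and 45.4 FPKM on soft and at 35.3, 30.7, 32.2 and 33.6 on stiff ECM (1.45-fold, log2 fold change 0.52 ± 0.05, limma adjusted p = 0.00021). UBE2L6, which conjugates ISG15 (0.50), OASL (0.54) and IFITM1 (0.77) were higher. Once the GC trend was removed 13 were higher, without stiff replicate 1 there were 21, and without soft replicate 2 or stiff replicate 2 there were 9. GAAANNGAA (either strand), the core of the interferon-stimulated response element, was present in 6.88% of all promoter windows, in 7.53% of tested genes, in 24 of 37 listed genes with a window (64.9%) and in 4 of the 8 called higher.

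In metabolism, HIF targets outside glycolysis gave 9 higher and 1 lower of 24 tested. CA12, a membrane carbonic anhydrase, was at 32.5, 39.2, 37.6 and 40.4 FPKM on soft and at 23.7, 15, 12.7 and 17.1 on stiff ECM (2.19-fold, log2 fold change 1.12 ± 0.15, limma adjusted p = 0.00052). BHLHE40 (0.59) and PPFIA4 (0.53) were higher, but the angiogenic factor VEGFA was lower (66.1 ± 4.87 against 89.7 ± 5.01 FPKM, SD, n = 4). Without soft replicate 2 or stiff replicate 2 there were 3 higher HIF targets, without soft replicate 3 there were 5, and with the GC trend removed there were 5. Glycolysis genes gave 6 higher and 2 lower of 25, with the aldolase ALDOC (35.7 ± 0.803 against 19 ± 4.37), PFKFB4 (0.39) and PDK1 (0.30) higher and the glucose transporter SLC2A1 (-0.31) lower. Without soft replicates 2, 3 or 4, or stiff replicates 2 or 3, there were 3 higher.

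Cholesterol genes gave 4 higher and 0 lower of 27, beside 11.4% called higher and 5.35% called lower over all tested genes. TM7SF2, a sterol reductase, was at 31.1 ± 1.89 against 18.3 ± 1.55 FPKM (SD, n = 4), and MYLIP (0.42), which degrades the LDL receptor, and INSIG1 (0.34) were higher. Fatty acid synthesis and storage gave 7 higher and 3 lower of 31. SREBF1, the transcription factor of lipogenesis (79.9 ± 3.32 against 56.4 ± 6.37), and the triglyceride lipase gene PNPLA2 (0.40) were higher, and MGLL, monoacylglycerol lipase, was lower (10.7 ± 0.701 against 17.9 ± 1.56, log2 fold change -0.69). Without soft replicate 2 or stiff replicate 2 there were 2 higher cholesterol genes and 3 higher fatty acid genes, and with the GC trend removed there were 2 and 4.

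The remaining genes of the largest changes belong to no list. Of the 12 largest increases these were SELENOP, a secreted selenium carrier (9.58 ± 2.06 against 2.96 ± 1.86 FPKM, SD, n = 4), RARRES1 (2.65-fold), SERPINA5, a serine protease inhibitor (2.86-fold), SLC40A1, the iron exporter ferroportin (2.44-fold), KLRC3 (2.74-fold) and GGT1, gamma-glutamyltransferase (2.7-fold). KLRC3 and GGT1 have near-identical paralogues and their values are uncertain. Of the 12 largest decreases these were AOX1, aldehyde oxidase (4.19 ± 0.446 against 8.86 ± 1.45), the semaphorin SEMA7A (11.3 ± 1.5 against 21 ± 2.35), POLR3G, a subunit of RNA polymerase III, the carboxypeptidase CPA4 and the noncoding RNA LINC01638. POLR3G kept its call in 4 of the 8 fits that left out 1 library, and the other 23 genes of largest change kept it in all 8. Among cell type markers outside the line, MUC1, a membrane mucin, was higher on soft ECM (113 ± 18.2 against 54.8 ± 15.4), and SPDEF, COL1A2, PDGFRB, CSF1R and PECAM1 were higher at levels under 6 FPKM. The summed level was 11.2 to 11.9 FPKM on soft and 6.47 to 8.38 on stiff ECM for fibroblast markers, 8.39 to 9.72 and 5.72 to 7.17 for blood cell markers, and 2.52 to 2.66 and 1.52 to 2.15 for endothelial markers. The part of these in other results was not tested. Of the line's own markers, FOSL1, AXL (432 ± 7.78 against 542 ± 39.1) and NT5E (138 ± 5.21 against 171 ± 8.94) were lower. Of the 8 fits that left out 1 library, FOSL1 kept its call in 2, AXL in 4 and NT5E in 8.

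The same 24 genes were set beside the selected cells, comparing soft-selected cells on soft with stiff-selected cells on stiff ECM in a fit of all 16 libraries. The selected comparison shares no library with the ancestral one, but in it the selection history changed together with the gel, and the library names place ancestral and selected libraries in different projects, so these cannot be told apart. In 23 of 24 genes the selected difference had the same sign as the ancestral one. The share of matching signs over all tested genes was not counted, so 23 of 24 cannot be called particular to these genes. IL24 (log2 fold change -1.62 ± 0.27 SE in selected cells), IL11 (-1.54 ± 0.19) and MGLL (-1.13 ± 0.09) had larger differences in selected cells, and ID3 (0.84 ± 0.25), ID1 (0.51 ± 0.17) and GGT1 (0.48 ± 0.21) had smaller ones. The exception was SLC40A1, at 29.6, 39.4, 36.2 and 35.5 FPKM on soft and 21.6, 12.8, 11.7 and 11.5 on stiff ECM in ancestral cells, but at 5.79, 3.15, 6.58 and 13.7 FPKM in soft-selected cells and 7.83, 12.5, 4.69 and 16.5 in stiff-selected cells. The test of the difference between the 2 effects called none of the 24 (interaction in limma, adjusted p 0.12 for SLC40A1, 0.14 for ID1 and 0.23 for ID3). Over all 12178 genes it called 0 at an adjusted p under 0.01, with 1570 at an unadjusted p under 0.05 and a smallest adjusted p of 0.014.

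**Figure D5:**
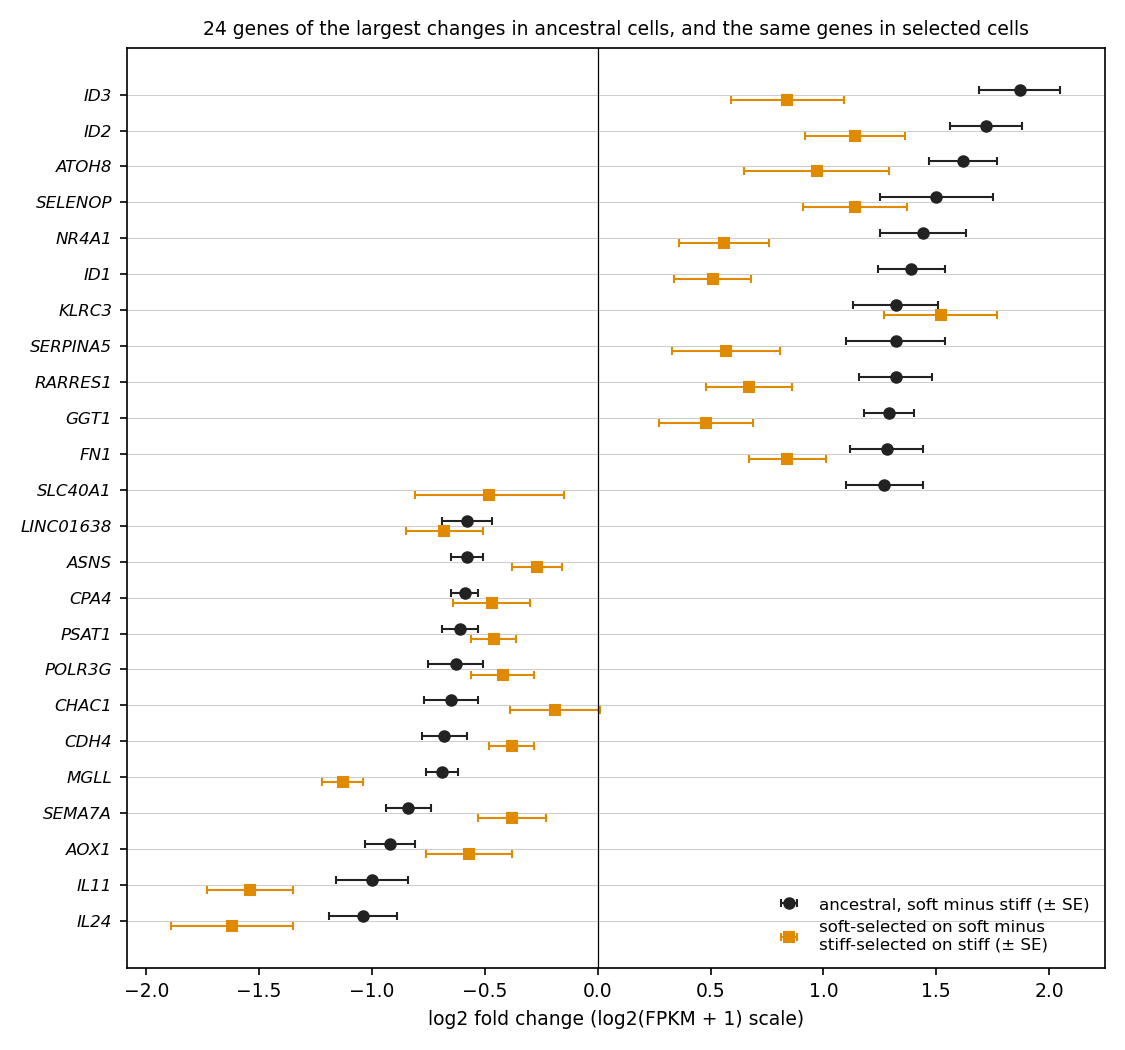
Log2 fold change (log2(FPKM + 1) scale, ± SE) of the 24 genes with the largest changes in ancestral cells. Black circles compare ancestral cells on soft with ancestral cells on stiff ECM, and orange squares compare soft-selected cells on soft with stiff-selected cells on stiff ECM. Signs match in all but SLC40A1.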

How the data were processed

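The submitters aligned paired-end NovaSeq reads of ribodepleted total RNA with STAR to hg19, per their processing notes. For the counting tool, gene models and strandedness the labels and methods name nothing, and these stay unknown. The authors deposited FPKM per gene, and for all 17735 genes above 0 in the table these values were whole multiples of a read (tolerance 0.001 reads), which gave the reads per library. Genes with FPKM of at least 1 in at least 4 of the 8 ancestral libraries were tested on log2(FPKM + 1) with limma 3.58.1 (R 4.3.3, trended prior, Benjamini-Hochberg, adjusted p under 0.01). Fold changes on this scale understate the change of low genes. The members and lists were chosen with earlier results of these data known. Named were the 12 largest changes in each direction among called genes without overlap and with a group mean of at least 5 FPKM. Also named were up to 3 called members per list by p, and a fixed set of genes. Other genes named, among them EGR1, FOS, JUNB, LTBP1, NPM1, VEGFA, SKIL, ITGB4, MMP1 and CEBPB, were chosen after their values were seen. Trends in GC content and mean level were removed by loess (span 0.4). These, a mean FPKM of at least 5 and leaving out stiff replicates 1 and 4 were alternatives chosen after seeing the data. The fits were tested on simulated data. Promoters came from RefSeq (GRCh38.p14), matched by gene for 10051 of 12178 tested genes, with both strands searched. Some genes and lists are not reported here.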

Additional observations from a re-analysis of the deposited data

Results flagged for a closer look

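Of 358 groups of 4 libraries examined for 179 named genes, 19 held a library far from the other 3, and chance gives about 1 in 20. In 7 of the 19 it was stiff replicate 1, with RARRES1 at 10.8 FPKM, SLC40A1 at 21.6, ITGA10 at 0.539, ITGA1 at 19.5, COL6A1 at 61.1, AXL at 483 and PIEZO1 at 58.4. Stiff replicate 4 stood apart for SPRY4 (44.2 FPKM), LFNG (5.79), MYLIP (11.8), KIF5B (132) and MYH9 (433), and stiff replicate 3 for THBS3 (7.78). Among the soft libraries, replicate 1 stood apart for COL6A1 (75.3 FPKM) and UTP15 (17.6), replicate 2 for MYLIP (20.6), replicate 3 for VIM (2065) and PLAU (152), and replicate 4 for HSPA8 (1247).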

How the results depend on the processing

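Counts of genes higher and lower on soft ECM were 1385 and 652. Lower counts were 990 with median scaling, 1338 with voom by median of ratios, 1306 with the coding length trend removed and 1304 without stiff replicates 1 and 4. Both counts moved with array weights (3453 and 2365), the GC trend removed (844 and 1079), an adjusted p under 0.05 (2473 and 1477) and a 2-fold minimum (33 and 2). The cause was not tested. Leaving out 1 library gave 737 to 1757 higher and 216 to 1135 lower genes. Whether shared replicate numbers pair the libraries could not be settled, since the deviations of the 4 libraries in a group depend on one another. The same-number correlations of deviations were -0.102, -0.154, 0.305 and 0.325, and those between different numbers ranged from -0.411 to 0.32. With the replicate block 1476 were higher and 769 lower. None of the 179 named genes changed sign in a setting while called there or in the reported fit. Genes called in neither were not counted, and YAP1 went from 0.03 to -0.06 with the GC trend removed. Of the 165 named genes that were called, 33 lost the call without stiff replicate 2. With all 16 libraries in the fit 28 lost it, and with the GC trend removed 13 did. With 4 libraries a group, small changes near the threshold depend on single libraries.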
